A study of Mus musculus with 6 samples.

Results

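The genes described here are 43 genes that drive, restrain or mark cell division. They were measured in the cardiac ventricles of juvenile mice that overexpress the microRNA miR-499 and of their wild-type littermates. The genes were taken by name as cyclins and cyclin-dependent kinases, kinase inhibitors, transcription factors, replication genes and mitotic genes. Each gene was read from the probe set that carries its symbol alone and has the highest mean log2 value over all mice. Of the 43 genes, 41 were found among the 19938 genes with such a probe set. Ccnb1 was not found with a symbol of its own in the annotation used here, and Cdkn1a was found there only on a probe set shared with another gene. The expression of neither was therefore analysed here.

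The study asked how elevated miR-499 alters gene expression in the heart before cardiac function fails. Each mouse had its ventricle RNA measured on an Affymetrix Mouse Gene 1.0 ST array of its own, with 3 mice labelled TG and 3 labelled WT, all at postnatal day 17. The TG mice carry the mouse miR-499 precursor under the alpha-myosin heavy chain (Myh6) promoter, which is active in heart muscle cells, and the paper gives their line as TG-17, the lower expressing of the lines it describes. They are a single line made by injection into FVB/NCrl embryos, the WT mice are untreated littermates without the transgene, and neither group was operated on or given an agent. The ventricle is a mixture of heart muscle, endothelial, stromal and blood cells, while the promoter drives the transgene in heart muscle cells.

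A dividing cell passes through a gap phase (G1), DNA synthesis (S), another gap phase (G2) and mitosis (M), and cyclins that come and go switch on the cyclin-dependent kinases at each step. D cyclins with Cdk4 and Cdk6 act on the retinoblastoma proteins, which frees E2f factors to switch on replication genes, and cyclin A and B with Cdk1 then carry the cell into mitosis, while inhibitors such as p27 (Cdkn1b) and p57 (Cdkn1c) hold the kinases back. In the mouse heart most heart muscle cells leave the cell cycle in the first weeks after birth, whereas endothelial cells, fibroblasts and blood cells can go on dividing.

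The microRNA that differs by design between the groups is shown first, with its seed (bases 2 to 8), the stretch that pairs with target messenger RNAs, in capitals. The sequence is from RefSeq in GRCm38.p6.
mmu-miR-499-5p, chr2:155622893-155622913, plus strand: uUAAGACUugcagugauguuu

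Promoters of some members are shown next, from the RefSeq promoter table (GRCm38.p6). Each is 300 bases, from 250 before to 50 after the annotated gene start, written on the strand of the gene. Mki67, Kif11 and Mcm5 are the members past the unadjusted threshold used below whose promoters that table holds. Cdk1 and Mcm6 were not past it and were added by choice. Of all member promoters held there, that of Mcm6 had the most E2F matches, so its contrast with Kif11 is an illustration. Capitals mark matches, on either strand, to the E2F letters TTCCCGC, their variant TTGGCGC, their variant TTCGCGC or their variant TTGCCGC, to the letters TTTGAA or their variant TTTAAA of the cell cycle homology region (CHR), or to the 5 letters that give the CCAAT box its name, and matches that overlap run together.
Mki67, chr7:135716330-135716629, minus strand: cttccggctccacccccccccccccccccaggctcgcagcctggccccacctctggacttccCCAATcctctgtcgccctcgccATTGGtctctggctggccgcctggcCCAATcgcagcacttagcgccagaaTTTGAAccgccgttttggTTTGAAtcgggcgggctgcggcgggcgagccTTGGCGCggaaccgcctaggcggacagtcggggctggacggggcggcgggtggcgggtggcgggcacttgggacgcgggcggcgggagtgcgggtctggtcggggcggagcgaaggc
Kif11, chr19:37376132-37376431, plus strand: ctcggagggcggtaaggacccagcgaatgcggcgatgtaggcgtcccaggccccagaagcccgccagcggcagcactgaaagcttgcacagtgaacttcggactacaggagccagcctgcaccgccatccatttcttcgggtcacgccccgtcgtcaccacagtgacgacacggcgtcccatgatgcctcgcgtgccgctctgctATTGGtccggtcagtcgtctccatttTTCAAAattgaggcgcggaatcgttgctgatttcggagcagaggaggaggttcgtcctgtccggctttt
Cdk1, chr10:69352863-69353162, minus strand: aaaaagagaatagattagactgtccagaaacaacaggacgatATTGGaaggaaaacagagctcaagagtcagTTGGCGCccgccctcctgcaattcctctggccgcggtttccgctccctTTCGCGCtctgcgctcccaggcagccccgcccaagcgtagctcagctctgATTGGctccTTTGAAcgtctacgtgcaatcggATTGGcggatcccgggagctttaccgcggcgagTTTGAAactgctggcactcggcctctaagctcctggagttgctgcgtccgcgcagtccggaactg
Mcm5, chr8:75109259-75109558, plus strand: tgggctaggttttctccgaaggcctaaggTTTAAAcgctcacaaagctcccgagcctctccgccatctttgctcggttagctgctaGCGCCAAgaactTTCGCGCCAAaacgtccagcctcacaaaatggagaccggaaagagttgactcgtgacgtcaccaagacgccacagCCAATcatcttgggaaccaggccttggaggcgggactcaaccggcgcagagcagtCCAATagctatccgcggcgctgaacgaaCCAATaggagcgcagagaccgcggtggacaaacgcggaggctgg
Mcm6, chr1:128359656-128359955, minus strand: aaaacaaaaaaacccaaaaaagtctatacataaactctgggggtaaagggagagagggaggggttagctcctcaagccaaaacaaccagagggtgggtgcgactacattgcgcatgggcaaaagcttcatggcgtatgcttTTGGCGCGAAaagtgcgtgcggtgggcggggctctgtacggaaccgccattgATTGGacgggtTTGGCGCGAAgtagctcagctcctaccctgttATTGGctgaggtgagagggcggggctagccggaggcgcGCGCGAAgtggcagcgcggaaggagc

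E2F sites are known from the promoters of genes used in S phase, and CHR elements from those of genes used in G2 and mitosis. The 5 promoters differ in these letters. Mki67, which encodes the proliferation marker Ki-67, Cdk1 and Mcm5 held matches to all 3 motifs, and the CHR match of Mcm5 was to TTTAAA. Kif11 held a CHR match 19 bases before its start and no E2F match, whereas Mcm6 held 5 E2F matches and no CHR match. Among the 4 E2F matches of Mcm6 before the start, each forward match overlapped a reverse one, so they lie at 2 places. In Mcm5, 2 of the 3 E2F matches overlapped in the same way.

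Of the 43 listed genes 34 had promoters in the table, 38 in all, among them those of Ccnb1 and Cdkn1a. The letters were spread unevenly over the groups of members. An E2F match was in 31.6% of these promoters against 9.57% of all 32851 promoters of the same length, a CHR match in 52.6% against 27.6%, and a CCAAT box in 71.1% against 37.4%. In the 12 promoters of mitotic members, 11 held a CHR match and 1 held an E2F match. In the 8 promoters of replication members, 5 held an E2F match and 3 held a CHR match. A match of so few letters is a description of the sequence and does not show that a factor binds there.

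The arrays and the transgene were checked before the members were read. Array medians (log2) were 6.93 to 6.95 in WT and 6.89 to 6.91 in TG, and Pearson's r between arrays across all probe sets, which are not independent replicates, was at least 0.990. Mir499 was 5.48, 5.34 and 5.68 in the WT mice and 9.31, 9.33 and 8.87 in the TG mice, a 12.7-fold difference (log2 fold change 3.67, SE 0.15, adjusted p = 0.00772 by limma). Every TG mouse was thus far above every WT mouse for the targeted gene. The WT mean of Mir499, 5.50, was below 6.38, the level used below as a guide to little or no specific signal. The fold can therefore be understated. The 5 cardiomyocyte markers (Tnnt2, Myh6, Actc1, Ryr2 and Pln) were all well detected, and none passed the unadjusted threshold; their summed linear level was 79950 to 80320 in WT and 77470 to 79680 in TG, ranges that lie close together without overlapping.

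No member of the cell cycle list passed the test for a difference between TG and WT ventricles. At a log odds B above 0, limma's estimate of the odds that a probe set changed when a share of 0.01 is assumed to change, 0 of the 41 members were called, against 0.366% of all 35556 probe sets. At an adjusted p under 0.05 (Benjamini-Hochberg over all probe sets) 0 members were called, against 0.00562% of all probe sets, and the smallest adjusted p of a member was 0.26. Counted by limma's unadjusted p under 0.05, 2 members were higher in TG, the transcription factor gene Myc and the mitotic kinesin gene Kif11, against 6.97% of all probe sets. At the same threshold 2 members were lower in TG, Mki67 and the replicative helicase gene Mcm5, against 8.50% of all probe sets. In both directions together this is 9.76% of the members and 15.5% of all probe sets, so the share among the members was no higher than the background.

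The same 4 genes were the members whose groups did not overlap. The lowest TG mouse was above the highest WT mouse for 2 members, against 11.3% of all probe sets, and the highest TG mouse was below the lowest WT mouse for 2, against 12.1% of all probe sets. When each array was centred on its median, the unadjusted threshold was passed by 3 higher and 1 lower. After a second quantile normalization it was passed by 4 higher and 1 lower. The shares over all probe sets were not counted under these settings, and centring moved their median log2 fold change from -0.014 to 0.037. In ventricle RNA, fewer cells of a type and less RNA per cell cannot be told apart, and this holds for every member described here.

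The differences were small and the intervals narrow. Over the 41 members the log2 fold change (TG minus WT) ran from -0.37 for Mki67 to 0.40 for Myc, with a median of -0.027 beside -0.018 over all 19938 genes. The mean of the TG mice was higher for 18 members and lower for 23, beside 8856 and 11082 of all 19938 genes. The standard error of a member's difference was 0.048 to 0.14. The 95% interval of the difference, from limma's moderated statistic, lay within 0.5 log2 units of 0, or 1.41-fold, on both sides for 38 of the 41 members. The other 3 were Mki67, Myc and the transcription factor gene E2f1. For all 41 the interval lay within 1 log2 unit. A difference of 1.41-fold or more in the array level is therefore outside the interval for most members. Of these 38 members, 9 had a mean below 6.38, the guide to little or no specific signal. For such members a real difference in RNA can be understated by the array. The smallest difference outside the interval depends on the member, and for Ccnd1 the interval was 0.916- to 1.12-fold. Differences within a member's interval remain possible.

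**Figure D1:**
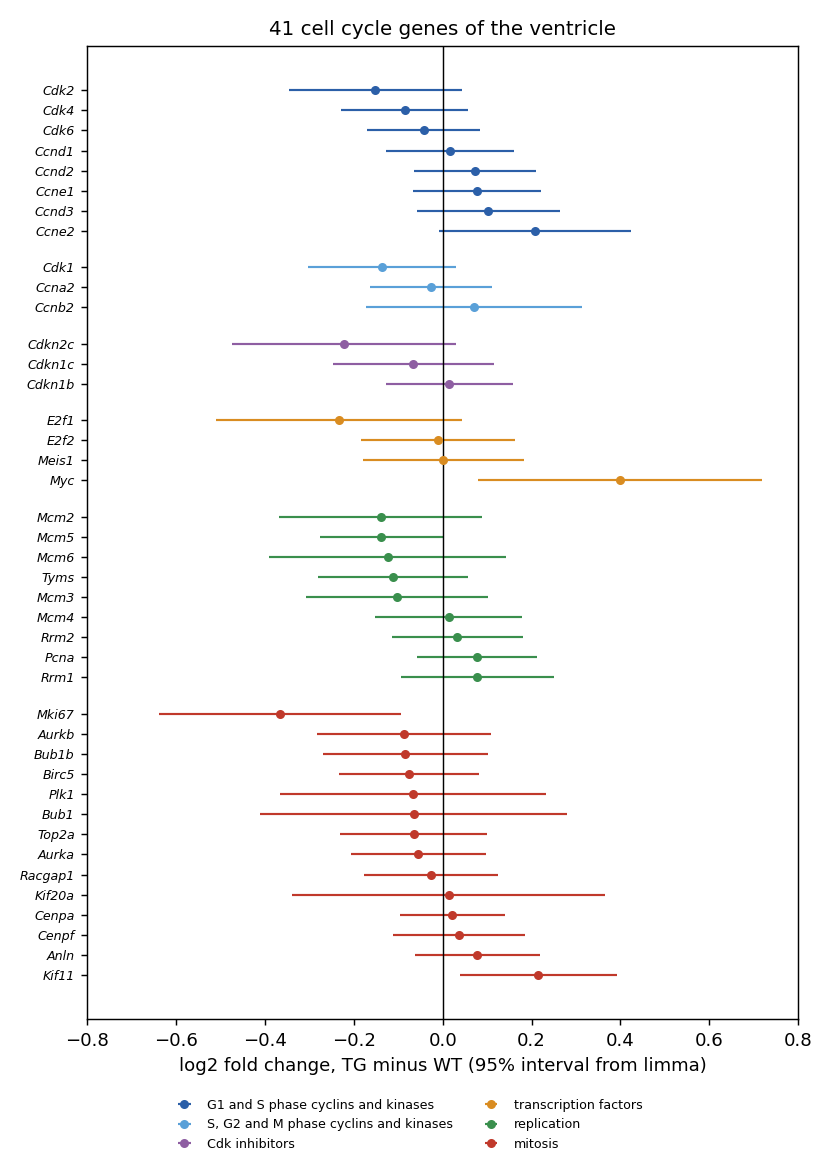
Difference between TG and WT ventricles for each of the 41 members, by role, in log2 units (TG minus WT, 3 mice a group) with the 95% interval from limma. The intervals of Mki67 and Mcm5 lie below 0 and those of Myc and Kif11 above it, and the intervals of the other 37 members cross 0.

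**Figure D2:**
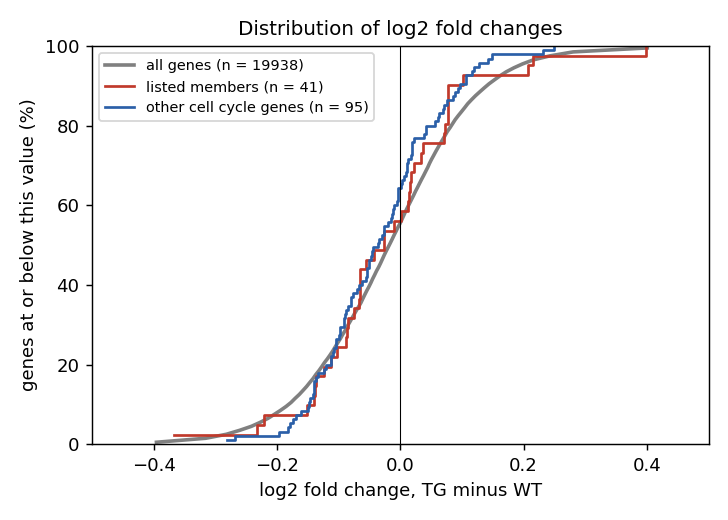
Cumulative share of genes against the log2 fold change (TG minus WT) for the 41 members, the 95 other cell cycle genes and all 19938 genes. The medians are -0.027, -0.037 and -0.018.

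D and E cyclins and their kinases, which act in G1 and at the entry to S phase, had 8 members, and none passed the unadjusted threshold. Ccnd1, cyclin D1, was 9.34, 9.35 and 9.24 in the WT mice and 9.34, 9.27 and 9.37 in the TG mice, with a log2 fold change of 0.017 (SE 0.059, adjusted p = 0.91). Ccnd2, cyclin D2, was 10.77, 10.74 and 10.69 in WT and 10.83, 10.85 and 10.73 in TG, with a log2 fold change of 0.072 (SE 0.057, adjusted p = 0.57). For both D cyclins the groups overlapped, and the 95% interval was -0.13 to 0.16 for Ccnd1 and -0.065 to 0.21 for Ccnd2. Ccnd3, cyclin D3, differed by 0.10 (SE 0.066) and the partner kinases Cdk4 and Cdk6 by -0.086 (SE 0.059) and -0.043 (SE 0.052).

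The E cyclins and Cdk2, which act at the step into S phase, gave the widest spread of this group. Ccne2, cyclin E2, was 5.47, 5.72 and 5.65 in WT and 5.71, 5.84 and 5.92 in TG, a log2 fold change of 0.21 (SE 0.089, unadjusted p = 0.058). All of these values were below 6.38, the guide to little or no specific signal. Cdk2 was 8.47, 8.74 and 8.62 in WT and 8.42, 8.44 and 8.51 in TG, a log2 fold change of -0.15 (SE 0.080). In each case 1 WT mouse lay within the range of the TG mice, so the groups overlapped. Ccne1, cyclin E1, differed by 0.077 (SE 0.060). Over the 8 genes the median log2 fold change was 0.045, with 5 means higher and 3 lower in TG.

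**Figure D3:**
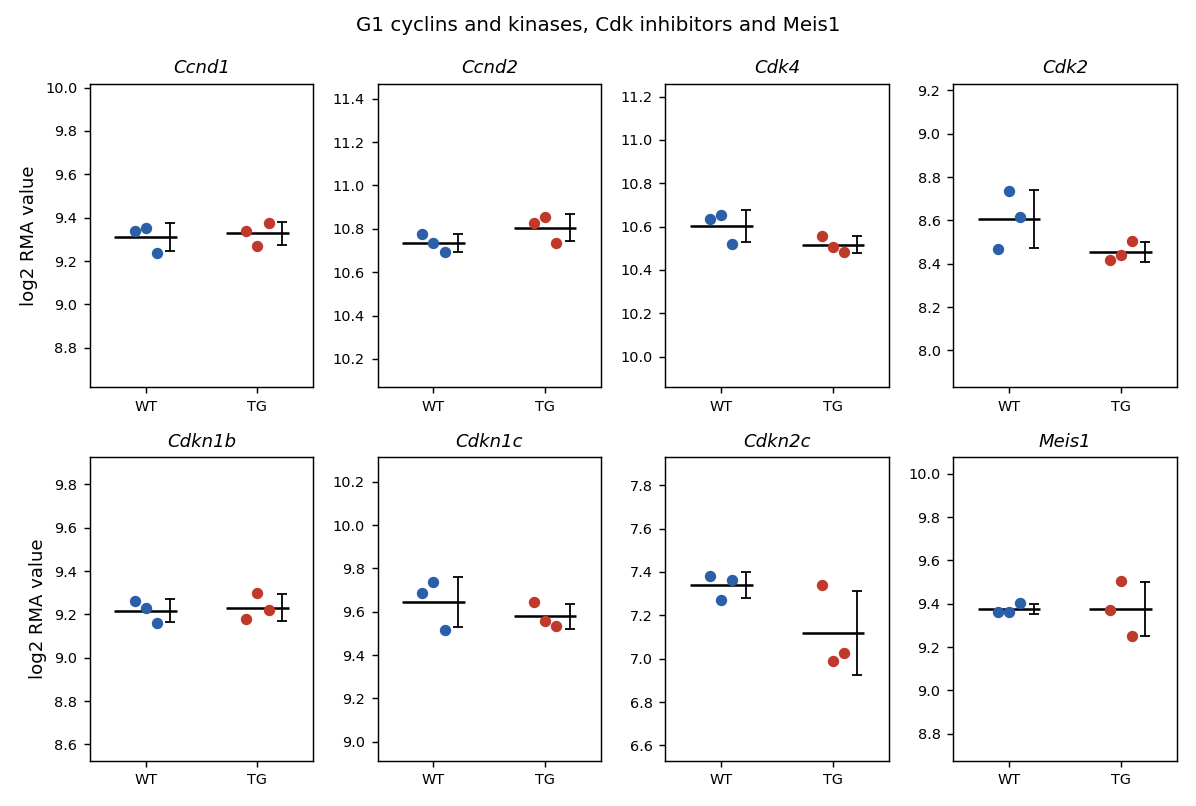
Log2 value of Ccnd1, Ccnd2, Cdk4, Cdk2, the 3 measured inhibitors and Meis1 in each mouse, WT and TG side by side, with points for mice, a bar for the group mean and a whisker of 1 SD (n = 3). Each panel has its own axis range of equal width, and the WT and TG points overlap in every panel.

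Cyclins and the kinase of S, G2 and M phase were 3 measured members, and again none passed. Ccna2, cyclin A2, was 6.67, 6.71 and 6.72 in WT and 6.70, 6.59 and 6.72 in TG, with a log2 fold change of -0.027 (SE 0.057, adjusted p = 0.84). Cdk1, the kinase that starts mitosis, was 6.72, 6.58 and 6.76 in WT and 6.48, 6.58 and 6.59 in TG, with a log2 fold change of -0.14 (SE 0.068, adjusted p = 0.39). The TG values of Cdk1 lay at or below the lowest WT value apart from 1 mouse, whose value was within the WT range. Ccnb2, cyclin B2, was higher by 0.070 (SE 0.10) in the mean, with TG mice at 7.12, 6.92 and 7.28. For the 11 cyclins and kinases together the median was 0.017, with 6 means higher and 5 lower.

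The 3 measured kinase inhibitors did not pass the test either. Cdkn1b (p27) was 9.26, 9.23 and 9.16 in WT and 9.18, 9.30 and 9.22 in TG, a log2 fold change of 0.015 (SE 0.059, adjusted p = 0.92). A dimmer probe set of the same gene was 7.75, 7.97 and 7.61 in WT and 8.25, 7.999 and 7.92 in TG, a difference of 0.28 (SE 0.12, unadjusted p = 0.060), so the 2 probe sets gave different sizes and the same sign. Cdkn1c (p57) was 9.68, 9.74 and 9.51 in WT and 9.64, 9.56 and 9.54 in TG, a log2 fold change of -0.066 (SE 0.075, adjusted p = 0.69). Cdkn2c (p18), an inhibitor of Cdk4 and Cdk6, had TG mice at 7.34, 6.99 and 7.02 against 7.38, 7.27 and 7.36 in WT. That difference was -0.22 (SE 0.10, unadjusted p = 0.075), with 2 TG mice below all WT mice and 1 among them.

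Among the 4 transcription factor genes Myc gave the largest difference of all members. Myc, a growth-promoting factor induced early when cells enter the cycle, was 7.64, 7.47 and 7.37 in WT (7.49 ± 0.14, SD, n = 3) and 7.71, 7.80 and 8.15 in TG (7.89 ± 0.23). All 3 TG mice were above the WT mice, TG mouse 1 only just, and TG mouse 3 stood highest. The fold was 1.32 (log2 fold change 0.40, SE 0.13, 95% interval 0.079 to 0.72), with an unadjusted p of 0.022 and an adjusted p of 0.27 from limma. Without TG mouse 3 the log2 fold change was 0.27, and the unadjusted p rose above 0.05 on leaving out WT mouse 2 (0.059) or WT mouse 3 (0.072).

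Meis1, a homeobox factor known to hold heart muscle cells out of the cell cycle, was 9.36, 9.36 and 9.40 in WT and 9.37, 9.50 and 9.25 in TG. Its log2 fold change was 0.00095 (SE 0.075, 95% interval -0.18 to 0.18, adjusted p = 0.996), and the TG mice lay on both sides of the WT mice. E2f1 was 6.31, 6.64 and 6.72 in WT and 6.38, 6.33 and 6.26 in TG, a difference of -0.23 (SE 0.11, unadjusted p = 0.085). The WT mice of E2f1 spread more than the TG mice, with SDs of 0.22 and 0.062. E2f2 differed by -0.011 (SE 0.071).

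The 9 replication genes had a median log2 fold change of -0.10, with 4 means higher and 5 lower, and 1 gene passed the unadjusted threshold. Mcm2 to Mcm6 encode subunits of the MCM helicase, which is loaded on origins before S phase. Mcm5 was 7.47, 7.51 and 7.52 in WT (7.496 ± 0.027, SD, n = 3) and 7.41, 7.28 and 7.38 in TG (7.36 ± 0.071), 1.101-fold lower (log2 fold change -0.14, SE 0.057, unadjusted p = 0.049, adjusted p = 0.32). Its groups did not overlap, but the difference was past the unadjusted threshold in 6 of 16 alternatives. Mcm2 was 7.59, 7.72 and 7.77 in WT and 7.41, 7.55 and 7.71 in TG, with a log2 fold change of -0.14 (SE 0.094, adjusted p = 0.51) and overlapping groups. Mcm6, Mcm3 and Mcm4 differed by -0.12 (SE 0.11), -0.10 (SE 0.084) and 0.013 (SE 0.068).

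The replication genes outside the helicase gave differences of both signs. Pcna, the sliding clamp of DNA polymerase, was 9.48, 9.58 and 9.56 in WT and 9.63, 9.57 and 9.65 in TG, a log2 fold change of 0.077 (SE 0.055, adjusted p = 0.54). Another probe set of Pcna gave 0.087 (SE 0.054). Rrm1 and Rrm2, the subunits of ribonucleotide reductase, differed by 0.078 (SE 0.071) and 0.033 (SE 0.061), and Tyms, thymidylate synthase, by -0.11 (SE 0.069). No member of this group outside Mcm5 had groups that did not overlap.

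Of the 14 mitotic genes 5 had a higher and 9 a lower mean in TG, with a median of -0.060, and 1 passed the unadjusted threshold in each direction. Mki67 was 7.22, 7.25 and 7.34 in WT (7.27 ± 0.063, SD, n = 3) and 6.78, 6.79 and 7.15 in TG (6.90 ± 0.21). Every TG mouse was below every WT mouse, with TG mouse 3 close to the WT mice and the other two well below. Mki67 was 1.29-fold lower (log2 fold change -0.37, SE 0.11, 95% interval -0.64 to -0.094, unadjusted p = 0.016, adjusted p = 0.26). It was the member with the smallest p, and without TG mouse 3 it was lower by 0.49 and passed B above 0. Without WT mouse 3, TG mouse 1 or TG mouse 2 the unadjusted p was 0.053, 0.053 and 0.055.

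Kif11, the kinesin that pushes the spindle poles apart, went the opposite way. It was 5.58, 5.76 and 5.77 in WT (5.70 ± 0.11, SD, n = 3) and 5.98, 5.86 and 5.91 in TG (5.92 ± 0.061), 1.16-fold higher (log2 fold change 0.22, SE 0.072, unadjusted p = 0.024, adjusted p = 0.27). The gap between the nearest mice was small against the spread within WT. Its mean was below 6.38, the 90th percentile of the means of 22 genes of other organs such as Ins2 and Umod, which were taken as a guide to the level of probe sets with little or no specific signal in ventricle. By that guide Kif11 was dim, as were 9 of the 41 members and 7 of the 14 mitotic genes, and a real difference in such a gene can be understated.

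**Figure D4:**
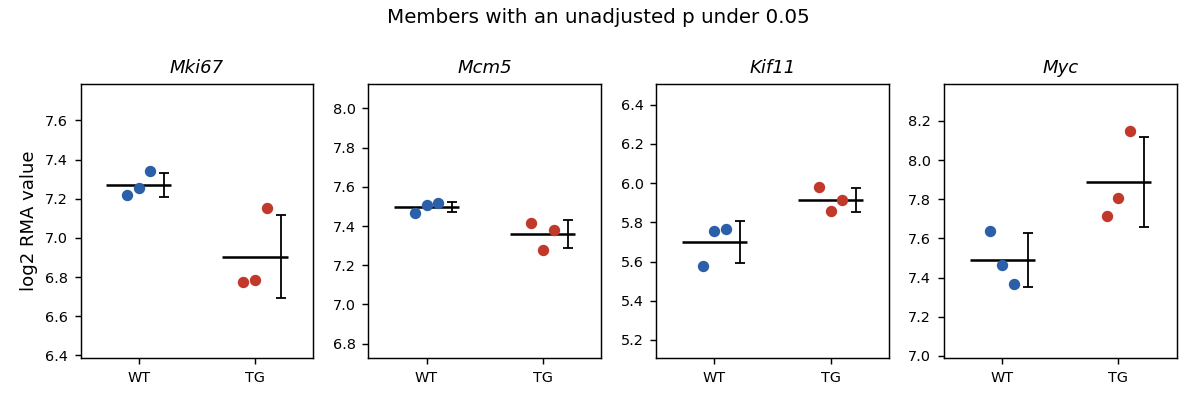
Log2 value of the 4 members past the unadjusted threshold in each mouse, with points for mice, a bar for the group mean and a whisker of 1 SD (n = 3). Each panel has its own axis range of equal width, and in each the TG and WT points do not overlap.

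Top2a, the topoisomerase that untangles sister chromosomes and that often marks dividing cells together with Ki-67, was 6.88, 7.005 and 6.91 in WT and 6.80, 6.83 and 6.97 in TG. Its log2 fold change was -0.065 (SE 0.068, 95% interval -0.23 to 0.10, adjusted p = 0.67). A dimmer probe set of Top2a, at 3.08 to 3.50 in all mice, gave 0.090 (SE 0.12), the opposite sign. The mitotic kinases Aurka, Aurkb and Plk1 differed by -0.055 (SE 0.062), -0.088 (SE 0.081) and -0.067 (SE 0.12). Bub1 and Bub1b, of the spindle checkpoint, differed by -0.066 (SE 0.14) and -0.084 (SE 0.076), and Birc5 (survivin) by -0.076 (SE 0.065).

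The remaining mitotic genes lay close to 0. Cenpa and Cenpf, of the kinetochore, differed by 0.022 (SE 0.048) and 0.036 (SE 0.061). Anln and Racgap1, which act in cytokinesis, differed by 0.078 (SE 0.058) and -0.027 (SE 0.062). Kif20a, another mitotic kinesin, had the least certain value, 0.013 (SE 0.14), with TG mice from 5.93 to 6.52.

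The TG mice differed among themselves across S, G2 and M phase genes. Relative to the WT mean, the average of the 9 replication genes was -0.044, -0.13 and 0.030 in the 3 TG mice and -0.033, -0.015 and 0.048 in the WT mice. For the 14 mitotic genes it was -0.0086, -0.11 and 0.0013 in TG and -0.044, 0.044 and -0.00035 in WT. TG mouse 2 lay well below all WT mice for both groups of genes, TG mouse 1 lay just below them for the replication genes, and TG mouse 3 lay among them for both. TG mouse 2 was the lowest of the 6 mice for 11 of the 26 replication, mitotic and S to M cyclin and kinase genes. It was the highest for 0 of them, while TG mouse 3 was the lowest for 1 and the highest for 5. The same counts were not made over all probe sets, so a lower level of these genes in TG mouse 2 is not set apart from its other genes.

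G1 and S phase cyclins and kinases averaged 0.0058, 0.028 and 0.039 in the TG mice and -0.019, 0.057 and -0.038 in WT, so the groups overlapped. The 3 inhibitors averaged -0.014, -0.12 and -0.14 in TG and 0.043, 0.011 and -0.054 in WT, with TG mice 2 and 3 below all WT mice. The 22 genes of other organs averaged -0.086, -0.072 and -0.099 in TG and 0.017, -0.016 and -0.0015 in WT, a difference of -0.086 between groups. On average, genes with little expected signal in ventricle were thus lower in all 3 TG arrays, with 6 means higher and 16 lower in TG. Their average difference was larger than that of the replication or mitotic genes (-0.046 and -0.038). The 9 dim members averaged 0.016 and the other 32 members -0.035. The part of the shift of the genes of other organs in the small negative medians was not tested.

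**Figure D5:**
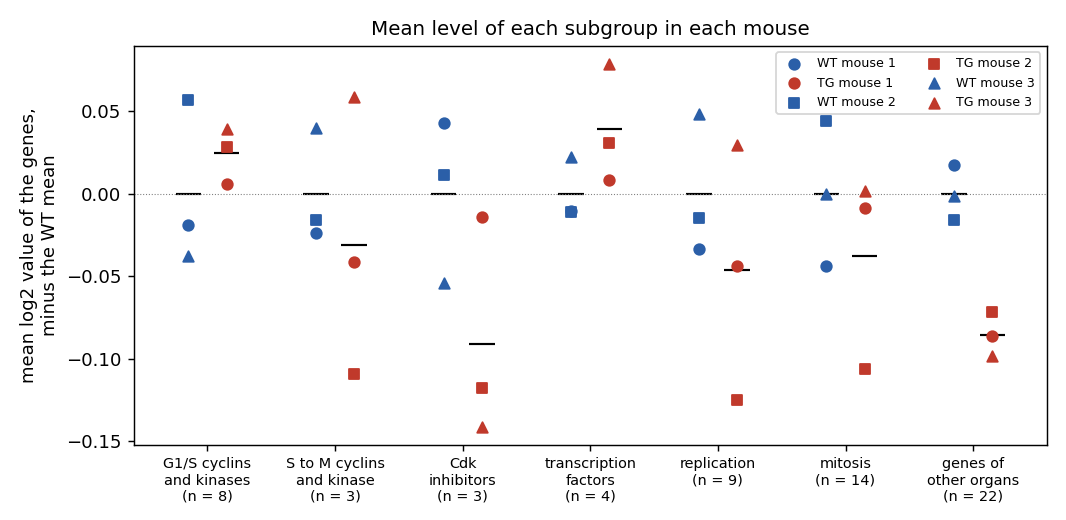
Average log2 value of each group of members in each mouse, as the difference from the WT mean, with the genes of other organs for comparison. WT and TG points overlap for each group of members, and TG mouse 2 is lowest for the replication and mitotic genes. The average of the genes of other organs is lower in all 3 TG mice.

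A wider list of 97 cell cycle genes was read in the same way. Of the 95 found, 0 passed B above 0 and the smallest adjusted p was 0.25. At the unadjusted threshold 3 were higher in TG and 5 lower, 8.42% of the list beside 15.5% of all probe sets, and the groups did not overlap for 4 higher and 12 lower, 16.8% beside 23.3%. The median log2 fold change was -0.037, with 34 means higher and 61 lower, beside 8856 and 11082 over all genes. The 17 retinoblastoma family, E2f and MuvB genes had none past the unadjusted threshold and a median of -0.044.

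The genes past the unadjusted threshold in the wider list came from several steps of the cycle. Orc4, of the origin recognition complex, and Gins4, of the replication fork, were higher by 0.23 (SE 0.065) and 0.14 (SE 0.054), whereas Gins1, of the same GINS complex as Gins4, was lower, at -0.27 (SE 0.084). Ncaph, a condensin subunit, and Pttg1, securin, differed by -0.28 (SE 0.087) and -0.18 (SE 0.068). Among genes that control the kinases, Cdc25b, a phosphatase that activates Cdk1, differed by -0.20 (SE 0.056), Ccng1 by -0.14 (SE 0.048) and the phosphatase gene Cdkn3 by 0.25 (SE 0.084). Ncaph, Gins1 and Cdkn3 were dim by the guide above, and the adjusted p of these 8 genes was 0.25 to 0.30.

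Markers of cell types that can divide in the ventricle were read beside the members. Summed linear levels were 8604 to 8816 in WT and 8781 to 8939 in TG for 5 endothelial genes, 18350 to 18590 and 18500 to 19610 for 5 fibroblast genes, and 836.2 to 1112 and 847.9 to 1070 for the 3 erythroid genes found of 5. None of these 13 genes passed the unadjusted threshold, and the summed ranges overlapped. Gene by gene, every TG mouse was above every WT mouse for 2 of the 5 endothelial genes, Pecam1 (0.10) and Emcn (0.082). The same held for 2 of the 5 fibroblast genes, Dcn (0.12) and Tcf21 (0.14). Over all probe sets the groups did not overlap, in either direction, for 23.3%. The 5 leukocyte genes summed to 1895 to 1988 in WT and 2080 to 2139 in TG, with Lyz2, of macrophages, at a log2 fold change of 0.27 (SE 0.050) and Cd3e, of T cells, at -0.27 (SE 0.049). The 5 smooth muscle and pericyte genes summed to 11900 to 12730 in WT and 11340 to 11650 in TG, with Acta2 and Myh11 at -0.22 (SE 0.073) and -0.31 (SE 0.070). Pdgfrb and Cspg4 were also lower in the mean, at -0.075 (SE 0.051) and -0.16 (SE 0.077). Rgs5 went the other way, at 0.092 (SE 0.052), with every TG mouse above every WT mouse.

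None of the leukocyte or smooth muscle markers passed B above 0, and the summed ranges of these lists did not overlap between groups. Of 5 genes of atrial heart muscle, 4 were lower at the unadjusted threshold and Myl7 and Myl4 passed B above 0, with log2 fold changes of -0.64 (SE 0.097) and -0.66 (SE 0.10). Their sum was 3752 to 4563 in WT and 3103 to 3271 in TG. Whether the cell make-up of the samples moved Mki67, Mcm5, Myc or Kif11 was not tested.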

How the data were processed

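Ventricle RNA of 3 TG and 3 WT mice was measured by the authors on Affymetrix Mouse Gene 1.0 ST arrays. The deposited values are log2, 1 per probe set and mouse, and the submitters' processing notes name RMA (background correction, quantile normalization between arrays and summarization), with no version in the sources used here. All 35556 probe sets entered the fit and 0 value columns were left out. The platform annotation gives 21789 probe sets 1 gene symbol and 1621 several, and 12146 are unnamed here. Through Entrez identifiers 0 symbols needed updating.

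TG and WT were compared by lmFit and eBayes of limma 3.58.1 (R 4.3.3) without trend or filter, tested on simulated data first. A call was B above 0 with an assumed share of 0.01. The mice are separate animals, and their number limits the precision. Same-numbered mice did not deviate together (r = 0.024, -0.00044 and 0.057), so numbers were not used as pairs.

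The members and gene lists were chosen with earlier results of these data known. Values in every mouse are given for members past an unadjusted p of 0.05 and for Mki67, Top2a, Cdk1, Ccna2, Ccnd1, Ccnd2, Cdkn1b, Cdkn1c, Mcm2, Pcna, Meis1 and Myc. Those of Ccne2, Cdk2, Ccnb2, Cdkn2c and E2f1 were added after their values were seen. Of the other cell cycle genes, up to 10 of those past that p were named. As alternatives, dim probe sets were filtered (mean log2 of at least 5), unlisted ones left out, arrays centred, weighted or quantile-normalized again, the fit given a trend by intensity, robust moderation, a replicate block or an assumed share of 0.05, probe sets of a gene averaged, and each mouse left out.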

Additional observations from a re-analysis of the deposited data

How the results depend on the processing

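At an adjusted p under 0.05, 0 members were called under every one of the 16 alternatives, and at B above 0 the count was 0 to 1 on leaving out each mouse, the 1 being Mki67 without TG mouse 3, and 0 otherwise. The number lower at an unadjusted p under 0.05, 2 as reported, was 1 after centring each array, a second quantile normalization, an intensity trend or robust moderation, and 0 to 3 on leaving out each mouse, with 0 without WT mouse 3 or TG mouse 2. The number higher, also 2, was 4 after a second quantile normalization, 3 after centring each array, and 1 to 2 on leaving out each mouse. Testing listed probe sets only, or using array weights, gave 3 higher and 3 lower. The shares of all probe sets past the unadjusted threshold were not counted under the alternatives. The median log2 fold change of the members, -0.027, was 0.024 after centring, which moved the median over all probe sets from -0.014 to 0.037. With the replicate number as a block, 1 member was lower and 1 higher at the unadjusted threshold, with Myc, Kif11 and Mcm5 no longer past it and Ccne2 past it; the numbers do not pair the mice. Mki67 was past the unadjusted threshold in 13 of the 16 alternatives (log2 fold change -0.49 to -0.30), Myc in 13 (0.27 to 0.49), Kif11 in 12 (0.15 to 0.27) and Mcm5 in 6 (-0.17 to -0.087). No member past the unadjusted threshold changed sign. Of 656 member values, 590 kept their sign and their side of that threshold, 20 lost it and 14 gained it, and 32, from 15 members, changed sign past it in neither setting. The arrays give no counts, and for dim members a real difference in level can be understated.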
